A study of Mus musculus with 2 samples.

Results

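The enzymes described here are those of the mouse lung that oxidise, hydrolyse or conjugate foreign chemicals and reactive lipid products. They were taken by gene symbol from the cytochrome P450 (CYP), glutathione S-transferase (GST), UDP-glucuronosyltransferase (UGT), flavin-containing monooxygenase (FMO), aldehyde dehydrogenase (ALDH), sulfotransferase (SULT) and carboxylesterase (CES) families, and a gene was kept when it had at least 100 counts over both sections together. This left 68 genes of the 212 symbols of these families, among 12590 features with at least 100 counts and 32285 features in all. Of the remaining symbols, 89 were at 0 and 55 had 1 to 99 counts. The members just inside the limit were Gstm7 with 103 counts, Cyp1b1 with 115 and Cyp2j9 with 116, and the genes just outside it were Gstp1 with 90, Fmo4 with 89 and Cyp4f39 with 70. By family the members were 24 of 101 CYP symbols, 16 of 21 ALDH, 14 of 21 GST, 6 of 19 CES, 4 of 7 FMO, 4 of 21 SULT and none of 22 UGT, of which 19 were at 0.

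Such enzymes act in sequence. CYP and FMO enzymes add oxygen to a substrate, with CYP enzymes drawing electrons from the reductase Por, while carboxylesterases split esters and aldehyde dehydrogenases turn aldehydes into acids, among them retinal into retinoic acid. The transferases then couple the products to glutathione (GST), sulfate (SULT) or glucuronic acid (UGT). In the mouse lung, secretory (club) cells of the airway are known for a high content of CYP enzymes, which both clear inhaled chemicals and convert some of them, such as naphthalene, into toxic products.

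The data came from spatial transcriptomics of 2 lung sections of female Balb/c mice, 1 per condition. The age given was 6 to 8 weeks, which the study's methods state as the age at injection. The control section was from a mouse with no treatment. The metastatic section was from a mouse given 1000000 4T1 cells, a mouse mammary tumour cell line, into the mammary fat pad (m.f.p.) and taken after 21 to 23 days. With 1 section per condition there were no replicates, so no test and no p-value are given, and section, animal and condition cannot be told apart. Levels are the summed counts of a gene per 10000 summed counts of all genes over a group of spots (CP10k). Ranges in parentheses are exact 95% intervals of counting error only, of the Poisson count for a level and of the binomial split of the counts for a ratio. A spot is a small region that holds several cells, so fewer cells of a type and less RNA per cell cannot be told apart.

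There were 20329126 counts in 1888 spots of the control section and 14657881 counts in 1110 spots of the metastatic section, with medians of 9644 and 11334 counts per spot. The barcodes mark array positions, and 858 were shared by both sections. In the control section, 104 spots with at least 1% of counts from cardiac muscle genes were left out of the spot classes below.

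The 68 enzymes together made up 83.0 CP10k of the control section (82.6 to 83.4) and 76.9 CP10k of the metastatic section (76.4 to 77.3). Cyp2f2, the P450 that activates naphthalene in club cells, had the most counts, 28897 in the control and 22057 in the metastatic section, or 14.2 and 15 CP10k. Next came Aldh2, the mitochondrial enzyme that oxidises acetaldehyde, with 9.54 and 7.61 CP10k, and Aldh1a1, which makes retinoic acid from retinal, with 8.75 and 8.15 CP10k. Other members above 1 CP10k in a section were Ces1d (6.31 and 6.72), Cyp4b1 (5.86 and 5.52), Gstm1 (5.91 and 4.59), Fmo2 (4.68 and 5.88), Fmo1 (4.57 and 3.15), Cyp2b10 (3.76 and 2.88), Gstm2 (1.88 and 1.29), Gsta3 (1.1 and 1.79), Gsta4 (1.27 and 1.08), Gstt1 (1.29 and 1.04) and Cyp2s1 (1.02 and 0.813). These are CP10k in the control and the metastatic section in that order. Counts are of transcript 3′ ends and were not corrected for differences between genes in how well they are captured, so the order is one of counts.

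To ask where in the lung each enzyme was found, spots were classed by marker genes that include none of the 68. Airway spots were the top 10% of a section by a score of secretory and ciliated cell markers. Among spots with an airway score at or below the section median, mesenchymal spots were the top 10% of the section by fibroblast, smooth muscle and pericyte markers, and alveolar spots were the top 25% by alveolar type I (AT1), alveolar type II (AT2) and capillary markers. In the metastatic section only spots over 500 µm from the metastases were used. This gave 178 airway, 178 mesenchymal and 446 alveolar spots in the control section, and 71, 71 and 176 in the metastatic section. The summed secretory markers reached 5224 CP10k in control airway spots against 277 in mesenchymal and 262 in alveolar spots, and 5299 against 339 and 392 in the metastatic section. The mesenchymal class stood less apart, with fibroblast markers at 36.5 CP10k against 24.6 in alveolar spots of the control section and 27.9 against 16.3 in the metastatic section, and its AT2 markers (434 and 284 CP10k) were near those of the alveolar class (456 and 330). Scgb1a1, the club cell secretoglobin, alone held 50.3% and 52.5% of the counts of airway spots, so that levels of all other genes there were divided by a total that 1 transcript dominated.

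An enzyme was assigned to the class where it was highest if that level was at least 1.5 times the next class, with an interval above 1, in both sections. Of 57 members with enough counts, 15 were airway enzymes, where 3.1% of all features were. To mesenchymal spots 2 members were assigned (0.503% of features), and to alveolar spots none (0.0265% of features). The other 40 were shared between classes, and 11 had too few counts. By family, the airway enzymes included 4 of the 6 CES members, 4 of 24 CYP, 4 of 16 ALDH, 2 of 14 GST and none of 4 SULT. These totals include members with too few counts to be assigned, among them 6 CYP and 2 SULT. Of these, Sult1d1 had 157 counts in control airway spots, 3 in mesenchymal and 2 in alveolar ones. In the metastatic section it had 9, 0 and 1.

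Cyp2f2 reached 44.4 CP10k in control airway spots (43.7 to 45.1) and 40.6 in metastatic airway spots (39.7 to 41.5), against at most 3.59 and 4.36 in the other classes. It had a count in every airway spot of both sections, with a lowest, median and highest spot of 8.79, 42.1 and 80.5 CP10k in the control and of 9.69, 36.7 and 61.6 in the metastatic section. It made up 36.1% and 34.7% of the counts of all 68 enzymes in airway spots. Airway spots were thus high in Cyp2f2 in both sections.

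The steepest differences belonged to enzymes with few counts elsewhere. Cyp4f15, of a P450 subfamily that hydroxylates fatty acids and leukotrienes, was at 0.372 CP10k in control airway spots, 51.9 times the next class (17.4 to 255), and at 0.330 in metastatic airway spots, 20.6 times the next (6.71 to 102). Cyp2a5, which oxidises coumarin and nicotine, was at 4.41 CP10k in control airway spots, 34.7 times the next class, and at 0.503 in metastatic airway spots, 13.1 times the next. For both, the other classes held from 1 to 22 counts.

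Cyp2s1, an epithelial P450, was at 3.31 and 2.54 CP10k in airway spots, 8.98 and 6.02 times the next class. The alpha class transferase Gsta4, which conjugates the lipid peroxidation product 4-hydroxynonenal, was at 3.42 and 2.69 CP10k (5.13 and 4.29 times), and its neighbour Gsta2 at 0.296 and 0.335 (5.83 and 8.96 times). The aldehyde dehydrogenases Aldh1a7, Aldh3a1 and Aldh3b1, which take aldehydes from lipids among their substrates, were 2.90 to 6.13 times the next class. The esterases Ces1e, Ces1f and Ces1g ranged from 2.24 to 10.7 times. Aldh1a1 and Ces1d were airway enzymes by a smaller margin: Aldh1a1 was at 15.6 and 14 CP10k, 2.04 and 1.61 times the alveolar level, and Ces1d, a carboxylesterase that also hydrolyses triacylglycerol, at 10.4 and 13.1, 1.85 and 2.35 times it. With a limit of 2-fold in place of 1.5-fold, 13 members were airway enzymes, without these 2.

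**Figure D1:**
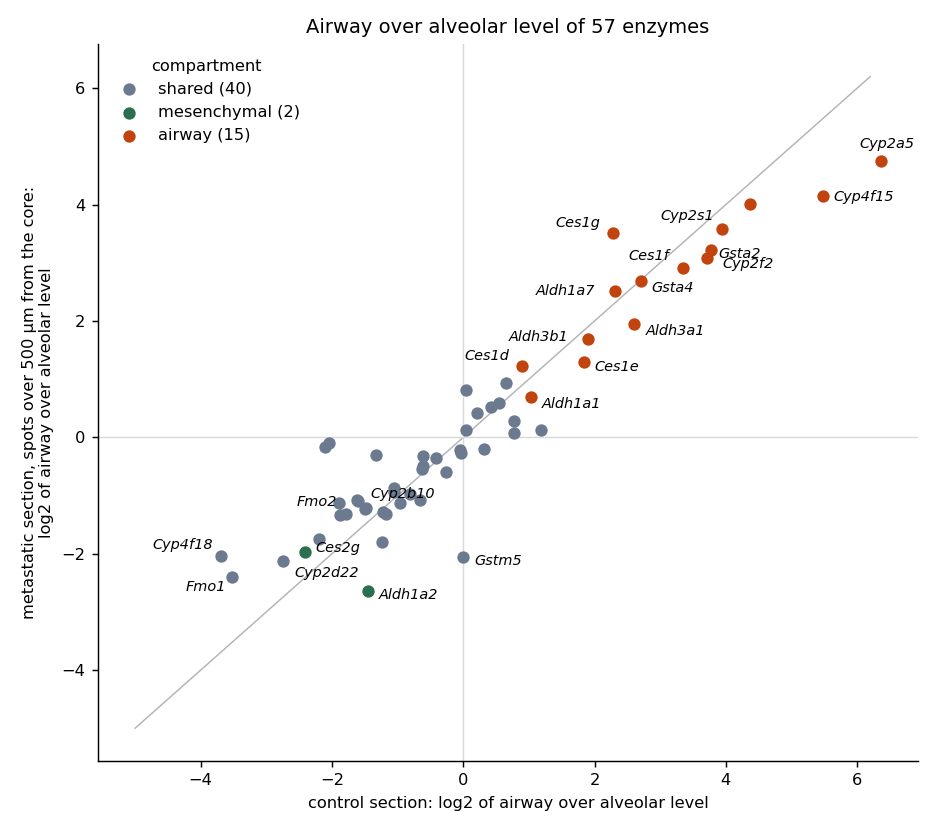
Log2 of the airway over the alveolar level of each of the 57 assigned or shared enzymes in the control section (x axis) and in the metastatic section over 500 µm from the metastases (y axis), coloured by class, with the line of equal values. The 15 airway enzymes lie at the upper right in both sections and Fmo1, Cyp4f18 and Cyp2d22 at the lower left.

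Genes of these families lie in clusters in the genome (mm10, gene positions from GENCODE M21), whatever their class. Symbols of 1 family less than 1000000 bases apart were taken as a cluster. On chromosome 7, from 25802475 to 27158668, 13 CYP symbols include 4 members, of which Cyp2s1, Cyp2a5 and Cyp2f2 were airway enzymes and Cyp2b10, a P450 known to be induced by phenobarbital, was shared. All 4 members of the Ces1 cluster on chromosome 8 (93020214 to 93535830) were airway enzymes. So were both members of the pair Aldh1a1 and Aldh1a7 on chromosome 19 (20492715 to 20727562) and both members of the Gsta cluster on chromosome 9 (78182774 to 78355788). Other clusters were split or held none: of the 4 Cyp4f members on chromosome 17 only Cyp4f15 was an airway enzyme, and of the 5 Gstm members on chromosome 3 none. Near-identical copies share reads, so the counts of Cyp2a5 (its neighbour Cyp2a4 had 11 counts) and of the Gstp and Ugt1a genes are uncertain.

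The chromosome 7 cluster holds 3 airway enzymes beside a shared one, and the promoters of its members (RefSeq, GRCm38.p6, from 250 bases before the start to 50 after it, 5′ to 3′ on the gene's strand) are shown for that comparison. Capitals mark matches to the searched motifs.
Cyp2s1 (chr7:25816476-25816775, - strand): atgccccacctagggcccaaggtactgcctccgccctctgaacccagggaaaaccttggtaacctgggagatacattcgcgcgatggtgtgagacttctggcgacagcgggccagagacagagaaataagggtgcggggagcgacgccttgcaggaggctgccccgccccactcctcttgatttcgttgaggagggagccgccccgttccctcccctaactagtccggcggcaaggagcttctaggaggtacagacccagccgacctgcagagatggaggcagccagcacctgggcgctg
Cyp2b10 (chr7:25897408-25897707, + strand): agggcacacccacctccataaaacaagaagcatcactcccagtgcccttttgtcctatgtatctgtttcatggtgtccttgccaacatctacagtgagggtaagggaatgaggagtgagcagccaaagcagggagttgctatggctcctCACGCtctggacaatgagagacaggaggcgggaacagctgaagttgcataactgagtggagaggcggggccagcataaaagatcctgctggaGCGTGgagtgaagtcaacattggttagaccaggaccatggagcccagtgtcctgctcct
Cyp2a5 (chr7:26835089-26835388, + strand): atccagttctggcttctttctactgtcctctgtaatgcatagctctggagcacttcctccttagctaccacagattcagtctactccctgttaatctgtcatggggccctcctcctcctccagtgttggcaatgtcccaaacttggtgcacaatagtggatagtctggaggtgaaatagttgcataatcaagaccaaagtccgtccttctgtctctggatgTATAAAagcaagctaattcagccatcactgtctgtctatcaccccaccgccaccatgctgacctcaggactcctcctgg
Cyp2f2 (chr7:27119705-27120004, + strand): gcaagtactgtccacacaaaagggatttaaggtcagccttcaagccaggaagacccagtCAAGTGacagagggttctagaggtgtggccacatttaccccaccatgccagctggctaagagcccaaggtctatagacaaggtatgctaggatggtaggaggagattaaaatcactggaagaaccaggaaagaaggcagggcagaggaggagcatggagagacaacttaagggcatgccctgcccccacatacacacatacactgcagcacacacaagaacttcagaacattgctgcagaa
The motifs were GCGTG (core of the site of the aryl hydrocarbon receptor and ARNT), TGACNNNGC (antioxidant response core), TGTTTAC (forkhead), CAAGTG (core of the NKX2-1 site), ACANNNTGT (glucocorticoid response) and TATAAA, each searched on both strands. The promoter of Cyp2f2 holds CAAGTG at bases 60 to 65, found in 13.6% of the 32817 promoters of the table and in 14.5% of the 62 promoters of the members, of which 54 of 68 had an entry. The promoter of Cyp2a5 holds TATAAA at bases 222 to 227 (13.6% of all promoters, 19.4% of the members'). That of Cyp2b10 holds GCGTG at bases 242 to 246 and, on the other strand, at 150 to 154 (32.4% and 35.5%), and none of the motifs was found in that of Cyp2s1. For the other motifs the shares of all and of the members' promoters were 12.4% and 11.3% (TGACNNNGC), 3.65% and 3.23% (TGTTTAC), and 6.85% and 3.23% (ACANNNTGT). A match describes the letters in this window and is not a binding site.

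Many shared enzymes were lowest in airway spots. The monooxygenase Fmo1 was at 0.617 CP10k in airway, 5.96 in mesenchymal and 7.08 in alveolar spots of the control section, and at 1.1, 5.19 and 5.83 in the metastatic section. Its alveolar level was thus 11.5 times (10.0 to 13.2) and 5.28 times (4.54 to 6.16) the airway level, while mesenchymal and alveolar spots were close. Cyp2d22, a P450 of the 2D family, was at 0.159 CP10k in airway and 1.07 in alveolar control spots (6.75 times) and at 0.265 and 1.16 in the metastatic section (4.38 times). Fmo2, the main FMO of the lung in most mammals, was 3.69 and 2.53 times higher in alveolar than in airway spots, and Cyp27a1, the mitochondrial sterol 27-hydroxylase, 4.64 and 3.43 times.

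Counted over all members, in a grouping defined after the values were seen, 19 of 57 were at least 1.5-fold higher in both alveolar and mesenchymal than in airway spots in both sections, where 49.8% of all features were. The median log2 ratio of alveolar over airway level was 1.29 and 1.07 over all features in the control and metastatic sections, and 0.27 and 0.22 over the members. Dividing by totals without the most abundant genes (Scgb1a1, haemoglobin, mitochondrial, surfactant protein and immunoglobulin genes) moved the median over features to 0.32 and 0.13 and that over members to -0.70 and -0.73. On those totals 24 members were airway enzymes, among them all 15 named above and also Gsta3, Gstm1, Gstm2, Gstk1 and Gsto1. Only Ces2g, Cyp27a1, Cyp2d22 and Fmo1 were then higher in alveolar and mesenchymal spots (9.71% of features).

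The other abundant members were spread over the classes. Aldh2 was at 7.38 CP10k in airway and 11.4 in both alveolar and mesenchymal control spots, and at 6.75, 9.88 and 10.6 in airway, alveolar and mesenchymal metastatic spots. Cyp4b1, the P450 that activates the lung toxin 4-ipomeanol, was 1.54 and 1.41 times higher in alveolar than in airway spots. Gstm1, a mu class transferase, was nearly even, at 6.55 CP10k in airway and 6.35 in alveolar control spots.

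Aldh1a2, the retinal dehydrogenase known from the mesothelium, the cell layer that covers the lung, had the larger ratio of the 2 members assigned to mesenchymal spots. It had 43 counts in mesenchymal and 32 in alveolar control spots (0.273 and 0.0765 CP10k, ratio 3.58, 2.21 to 5.84) and 55 and 9 in the metastatic section (0.703 and 0.0482 CP10k, ratio 14.6, 7.16 to 33.6). Ces2g, a carboxylesterase, was at 0.432 and 0.422 CP10k in mesenchymal spots, 1.63 (1.19 to 2.22) and 1.92 times (1.18 to 3.12) the alveolar level. Aldh1a2 alone passed a limit of 2-fold. The mesenchymal class was also richer in mesothelial markers. They had 586 counts in its 178 control spots and 543 in the 446 alveolar ones. In the metastatic section they had 321 counts in 71 mesenchymal spots and 87 in 176 alveolar ones. The assignment of Aldh1a2 therefore does not separate mesenchyme from mesothelium.

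To look within the airway-poor tissue, all spots with an airway score at or below the section median were taken, whether or not they were in a class, again only over 500 µm from the metastases in the metastatic section and without cardiac spots. The 10% of them with the highest score of each cell type's markers (89 control and 35 metastatic spots) was compared with the rest, a comparison added after the values were seen. Of 51 members, 5 were higher in both sections in the spots rich in mesothelial markers (1.07% of features): Aldh1a2, Cyp7b1, Cyp2s1, Gsta3 and Gsta4. Aldh1a2 was at 0.840 CP10k there against 0.0484 in the rest of the control section (17.3 times, 11.2 to 27.3) and at 1.81 against 0.0490 in the metastatic section (36.9 times, 20.6 to 70.2). Cyp7b1, an oxysterol hydroxylase, had 8 and 14 counts in these spots (2.99 and 15.1 times the rest). The mesothelium-rich spots held 72 and 57 counts of Aldh1a2, against 31 and 15 in all the other spots at or below the median airway score.

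Cyp2s1 and Aldh1a2 were also higher in the spots rich in fibroblast markers (2 members, 1.22% of features) and in macrophage markers (the same 2, 0.985%). In the spots rich in AT1 markers, Cyp2b10 was the only member called (0.433% of features). It was at 7.07 CP10k against 4.41 in the control section (1.60 times, 1.46 to 1.75) and at 5.79 against 3.72 in the metastatic section (1.56 times, 1.34 to 1.81). No member was higher in the spots rich in markers of AT2 cells (0.295% of features), capillaries (0.212%), smooth muscle and pericytes (0.359%), neutrophils (0.0921%) or B cells (0.157%).

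**Figure D2:**
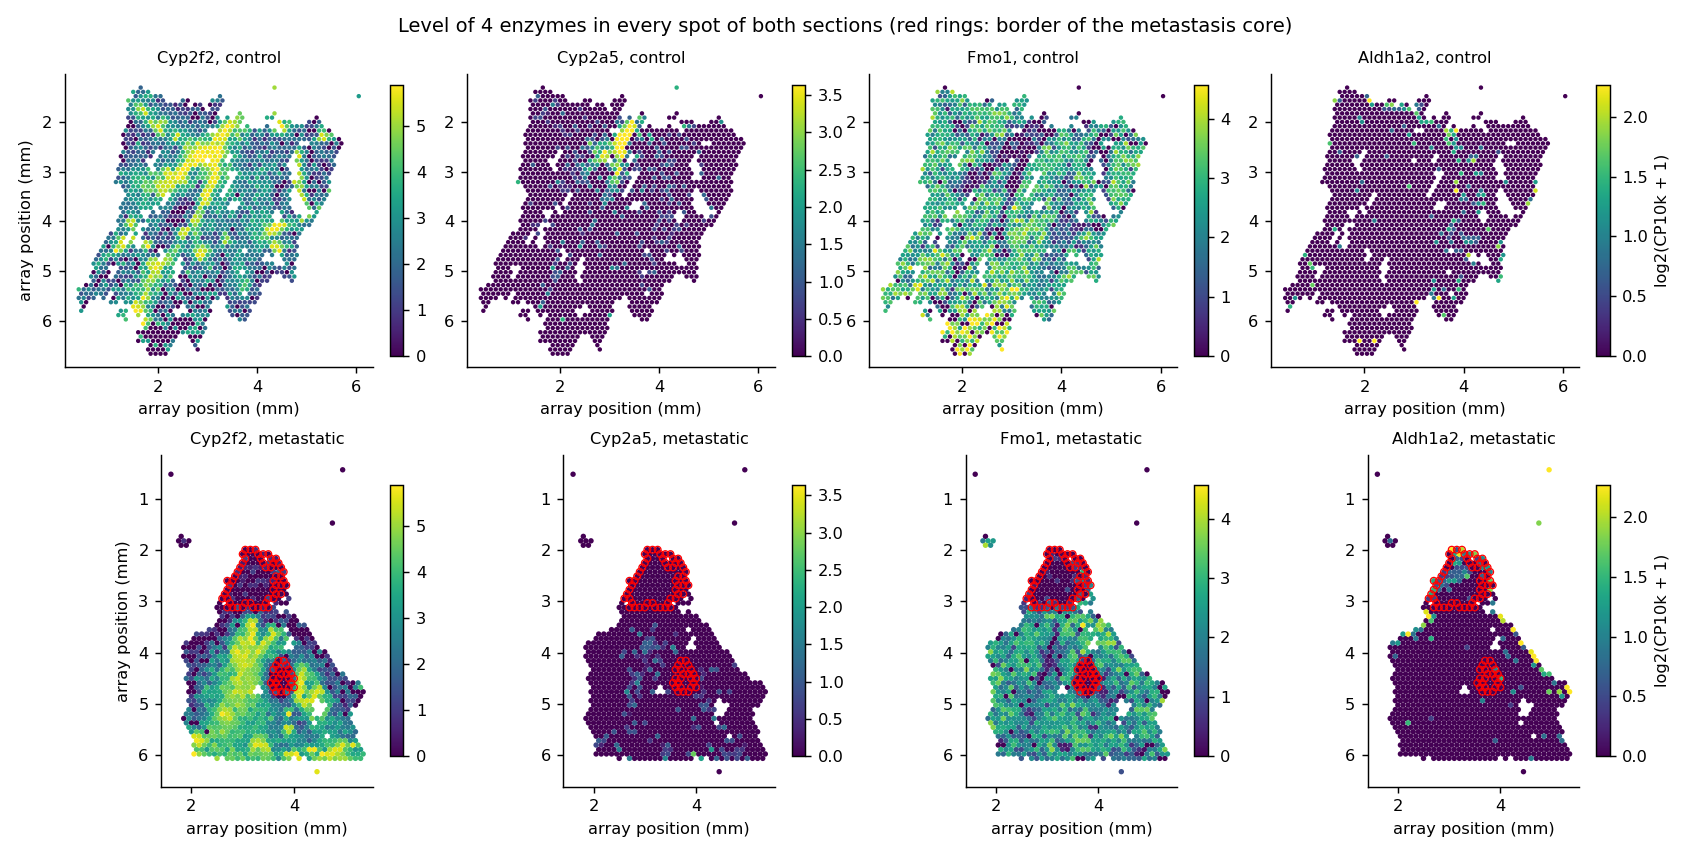
Level of Cyp2f2, Cyp2a5, Fmo1 and Aldh1a2 in every spot of the control (top) and metastatic (bottom) section, as log2(CP10k + 1) at the array position in mm, with red rings on the border of the metastasis core. Cyp2f2 follows the airways, Cyp2a5 is high in 1 airway stretch of the control section, Fmo1 is low along the airways and in the core, and Aldh1a2 is found in few spots, among them the edge of the metastatic section and the larger metastasis.

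Around the metastases, the question was which enzymes were lower beyond what fewer airway spots would give. The metastasis core was taken as a cluster of spots found from 2000 variable genes that include no member. Of 5 clusters it was the one with the highest mean score of 4T1 markers, and it was led by Mmp3 (47.3 times the level of spots over 500 µm away), Ccl7 (36.3 times), AA467197 (25.4 times) and Cxcl10 (25 times). Of the 4T1 markers, Krt18, Krt8, Lgals7, Spp1, Mki67 and Top2a were higher there. Epcam, Krt7 and Krt19 were lower (0.360, 0.286 and 0.153 times), and Krt14 was at 0. Macrophage markers were at 3.1 times and T and NK cell markers at 2.23 times the level of those far spots, so the core is not a region of cancer cells alone. It held 149 spots in a larger metastasis of 123 and a smaller one of 26. This core is broader than the region marked as core in the study, and narrower cores of 90 and 21 spots gave other counts for the margin, with 24 and 28 members lower in place of 7. All 90 and 20 of the 21 lay within the cluster, so the margins of these cores can hold spots counted here as core. The margin was the 92 spots within 200 µm of the core, 35 at the larger and 57 at the smaller metastasis. It was compared with 177 airway-poor far spots, the 25% of spots over 500 µm away with the lowest airway score. A member was called lower or higher when past 1.5-fold, with an interval clear of 1 and the same direction around both metastases.

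In the margin, 7 of 49 members were lower than in airway-poor far spots, where 9.88% of all features were, and 3 were higher (5.27%). The lower ones were Fmo1, Fmo5, Cyp2d22, Cyp20a1, Ces2g, Sult1a1 and Aldh1a2. Fmo1 was at 2.99 CP10k in the margin and 5.15 in airway-poor far spots, 0.580 times (0.512 to 0.656), with 0.638 times at the larger and 0.547 at the smaller metastasis. Cyp2d22 was at 0.503 and 0.989 CP10k (0.508 times, 0.373 to 0.685) and Sult1a1, a sulfotransferase of phenols, at 0.822 and 1.33 (0.617 times, 0.483 to 0.785). Lower counts stood behind Ces2g (11 and 42 counts, 0.330 times), Fmo5 (21 and 53, 0.499 times) and Aldh1a2 (14 and 66, 0.267 times). Aldh1a2 differed between the metastases, with 0.695 times at the larger and 0.0297 at the smaller one, and so did Cyp20a1, with 0.896 and 0.435 times. Airway content was not level here: secretory markers in the margin were at 8.91 times their airway-poor far level. AT2 markers were at 0.66, AT1 markers at 0.562, capillary markers at 0.503 and mesothelial markers at 0.268 times theirs. Against all far spots the ratio of Aldh1a2 turned direction, with mesothelial markers at 1.12 times (0.882 to 1.4). The part of airway content and of these cell types was not tested.

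The members that were higher were the airway enzymes Aldh1a7 (2.79 times, 1.92 to 4.11) and Gsta4 (2.10 times, 1.57 to 2.83), and Aldh18a1. Both airway enzymes were near 1 at the larger metastasis (1.09 and 1.02 times) and raised at the smaller one (3.73 and 2.70 times). Cyp2f2 was at 13.4 CP10k in the margin and 2.23 in airway-poor far spots, with 0.452 times at the larger and 9.10 times at the smaller metastasis. Scgb1a1 held 26.1% of the counts in the margin of the smaller metastasis and 0.751% in that of the larger, against 1.91% in airway-poor far spots and 22.1% in all far spots. The margin of the smaller metastasis thus held airway and that of the larger did not.

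Against all far spots, airway included, 7 of 67 members were lower (2.19% of features) and 2 were higher (15.1%), Aldh18a1 and Cyp26b1, which breaks down retinoic acid. Of the 7, Cyp2s1 (0.598 times), Cyp2a5 (0.528), Aldh3a1 (0.615) and Cyp4f15 (0.402) were airway enzymes, and all 4 were far lower at the larger (0 to 0.136 times) than at the smaller metastasis (0.625 to 0.928). Cyp2d22 (0.666 times, 0.506 to 0.864) and Ces2g (0.478 times, 0.234 to 0.878) were lower against both references. The remaining gene, Cyp2u1, had no count in the margin and 30 in far spots.

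Airway spots within 500 µm of the core had Cyp2f2 at the level of airway spots farther away. There were 23 airway spots within 500 µm of the core, 3 at the larger and 20 at the smaller metastasis, a group defined after the values were seen. Cyp2f2 was at 40.0 CP10k in them and 40.6 in far airway spots, or 0.985 times (0.942 to 1.03). Beside it stood 0.978 times for Cyp2s1 (0.813 to 1.17), 1.1 for Ces1d (1.02 to 1.19) and 0.705 for Cyp2a5 (0.426 to 1.12, 23 against 93 counts). None of 47 members was lower (1.66% of features) and 1 was higher (1.8%), the theta class transferase Gstt3 at 1.66 times (1.11 to 2.44). The median log2 ratio was -0.02 over members and 0.02 over features. Within 200 µm there were only 4 airway spots, all at the smaller metastasis. There 2 of 41 members were lower (7.66% of features), Fmo1 with 6 counts against 204 (0.317 times, 0.115 to 0.702) and Cyp2d22 with 0 counts against 49, and 2 were higher (0.363%), among them Gstt3 (2.18 times, 1.16 to 3.84). In these 4 spots secretory markers were at 1.22 times and AT2 markers at 0.517 times the far airway level, and their part was not tested.

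To bring airway content closer on both sides, the 58 margin spots with an airway score as low as that of the airway-poor far spots were compared with these. This comparison was added after the values were seen. Airway content was still not level: Scgb1a1 held 1.26% and 1.91% of counts, and the airway-poor margin had secretory markers at 0.661 times (0.645 to 0.678) and ciliated markers at 0.714 times (0.594 to 0.853) the airway-poor far level. The part of airway content in the results below was not tested. Of 45 members, 13 were lower, where 4.62% of all features were, and 1 was higher (12.2%). The median log2 ratio was -0.25 over members and 0.18 over features, and the members together were at 50.5 CP10k (48.8 to 52.3) in the airway-poor margin and 72.7 (71.4 to 74.1) in airway-poor far spots.

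Of the abundant members, Aldh2 was at 5.98 and 9.57 CP10k (0.625 times, 0.556 to 0.7), Aldh1a1 at 4.79 and 8.11 (0.591 times, 0.519 to 0.671) and Cyp4b1 at 4.24 and 6.84 (0.620 times, 0.540 to 0.710). Gstm1 was at 3.28 and 5.29 CP10k (0.620 times), Fmo1 at 3.20 and 5.15 (0.621 times) and Gsta3, an alpha class transferase, at 1.61 and 2.58 (0.624 times). A lower call requires a ratio below 1 around both metastases. The 6 were at 0.518 to 0.677 times at the larger and 0.536 to 0.791 at the smaller one. The lowest ratios had fewer counts: Ces2g 0.302 times, Cyp2s1 0.380, Aldh1a2 0.384, Fmo5 0.430, Cyp2d22 0.487 (30 and 156 counts, 0.318 to 0.724), Aldh6a1, an enzyme of valine breakdown, 0.543, and Sult1a1 0.591. Not called were Fmo2 (0.674 times, 0.600 to 0.757), Cyp2b10 (0.816), Ces1d (0.747), Gstt1 (0.746), Gstm2 (0.836) and Cyp2f2 (0.650, with 0.288 at the larger and 1.26 at the smaller metastasis).

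Aldh18a1, which makes the proline precursor pyrroline-5-carboxylate, was the only member higher, with 20 and 18 counts (0.322 and 0.114 CP10k, 2.82 times, 1.41 to 5.65). Among members not called, the highest ratios with at least 50 counts were those of Aldh16a1 (1.64), Gsto1 (1.3), Cyp51 (1.27), Cyp4f13 (1.24) and Aldh7a1 (1.22). The airway enzyme Gsta4, higher in the whole margin, was at 0.934 times (0.583 to 1.46) once airway-rich margin spots were left out.

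Marker genes of the tissue moved between the same spots. The summed AT1 markers were at 0.679 times their airway-poor far level (0.651 to 0.707), capillary markers at 0.588 (0.559 to 0.619) and AT2 markers at 0.830 (0.815 to 0.845). Mesothelial markers were at 0.441 times and fibroblast markers at 0.7 times, while macrophage markers were at 1.60, T and NK cell markers at 2.50 and B cell markers at 2.53 times. Haemoglobin and the other red blood cell genes were at 0.137 times. The 1.5-fold limit of a lower call itself lies below the ratios of the AT2 and AT1 markers. All 13 lower members were thus below both by definition, which says nothing about the enzymes. For 10 of them the interval lay wholly below that of the AT2 markers. For none did it lie wholly below that of the AT1 or the capillary markers, and 6 had a ratio below that of the capillary markers. The part of these cell types in the lower enzyme levels was not tested.

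**Figure D3:**
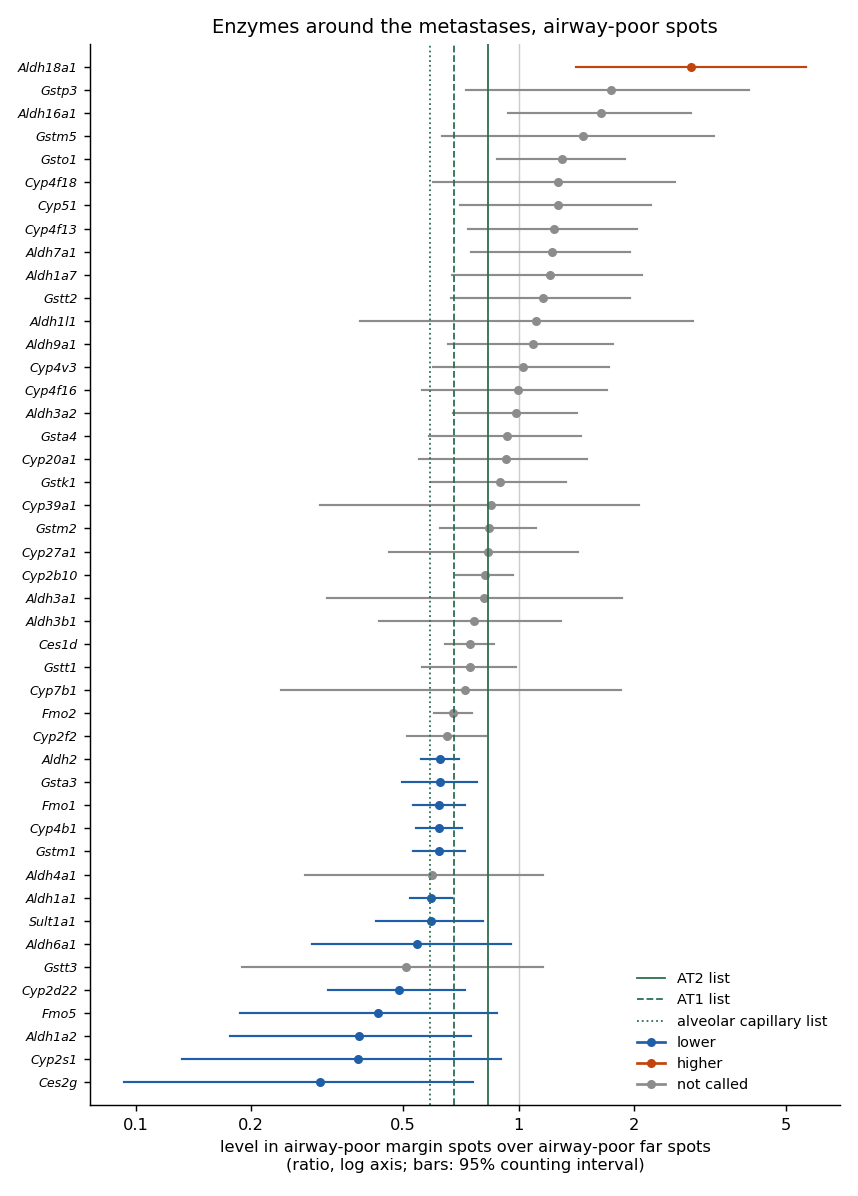
Level of each of 45 enzymes in airway-poor margin spots over airway-poor far spots of the metastatic section (ratio on a log axis, bars are 95% counting intervals), with vertical lines at the ratios of the AT2, AT1 and alveolar capillary marker lists. The 13 lower enzymes lie at 0.302 to 0.625 times, left of the AT2 and AT1 lines as the call limit requires, and Aldh18a1 is highest.

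By distance, Fmo1 and Cyp4b1 were lowest in the core and higher with each step over the nearest 300 µm around both metastases. Around the larger metastasis Fmo1 was at 0.0616 CP10k in the core over 200 µm from its edge, 0.396 in the outer core, 2.64 at 100 µm, 3.59 at 200 µm and 5.68 at 300 µm. Around the smaller one it was at 0.233 in the core, 2.19 at 100 µm, 3.23 at 200 µm and 4.25 at 300 µm. Cyp4b1 went from 2.71 CP10k at 100 µm to 7.76 at 400 µm around the larger and from 4.53 to 6.14 around the smaller metastasis. Cyp2f2 did not follow distance alike around both: at 100 µm it was at 0.348 CP10k around the larger and 18.2 around the smaller metastasis.

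**Figure D4:**
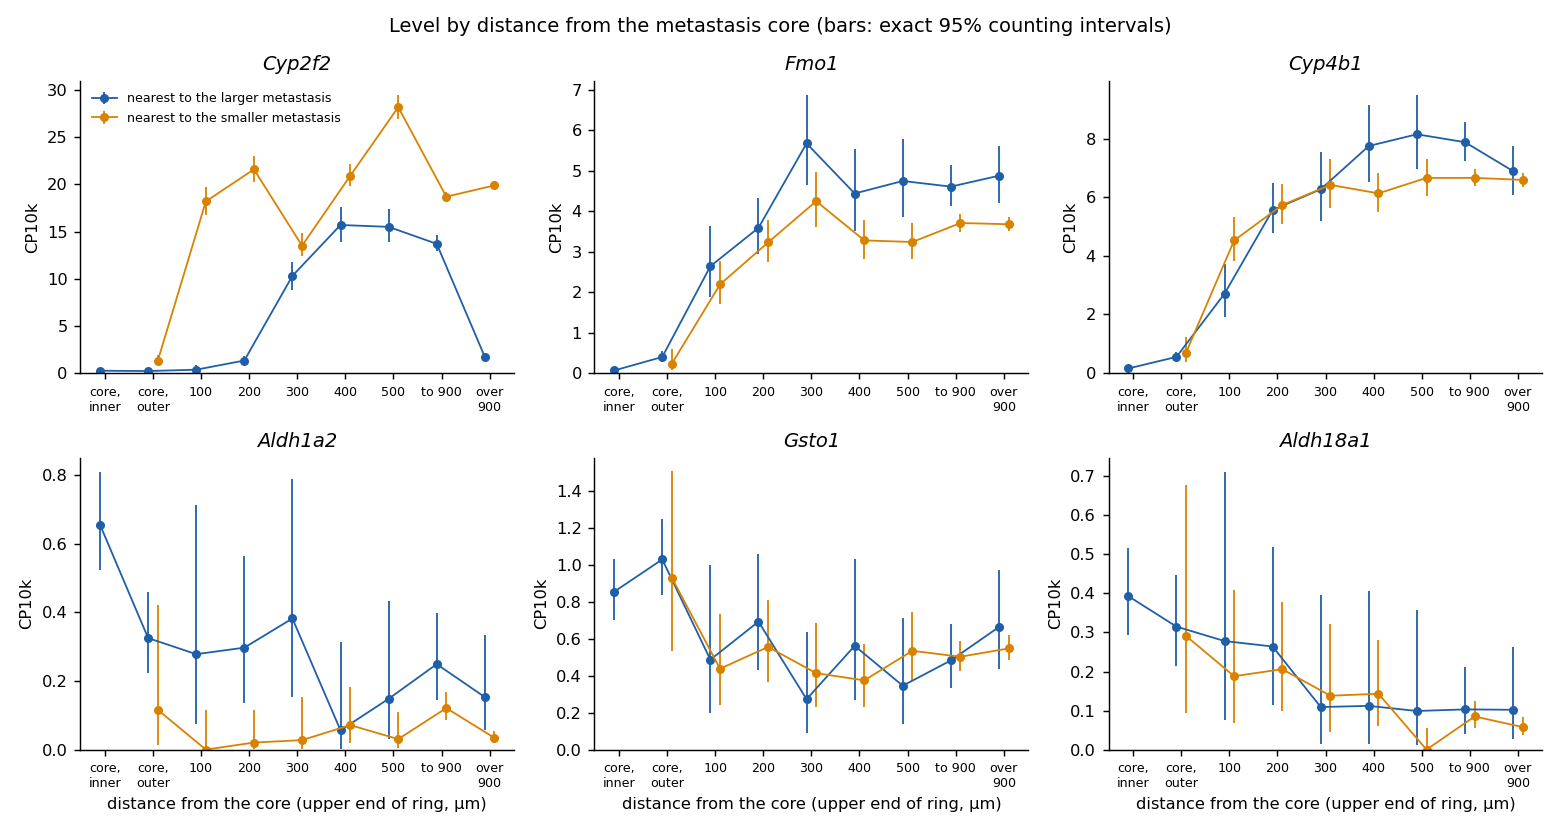
Level of 6 enzymes (CP10k, bars are exact 95% counting intervals) by distance from the metastasis core in µm (upper end of each ring), for spots nearest to the larger (blue) and the smaller (orange) metastasis. Fmo1 and Cyp4b1 are low in the core and higher with distance around both, Cyp2f2 does not follow distance alike around both, and Aldh18a1 and Gsto1 are highest in the core.

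In the core the enzymes together were at 14.4 CP10k (14 to 14.9) against 72.7 in airway-poor far spots. Of 46 members, 27 were lower, where 22.4% of all features were, and 3 were higher (20.5%). The median log2 ratio was -1.66 over members and 0.01 over features. Fmo1 was at 0.208 CP10k in the core and 5.15 in airway-poor far spots, 0.0404 times (0.0298 to 0.0536), and Fmo2 at 0.379 and 8.80, 0.0431 times. Cyp4b1 was at 0.0512 times, Gsta3 at 0.0554, Cyp2b10 at 0.0766 and Aldh1a1 at 0.0774. Aldh2 kept more, with 2.68 against 9.57 CP10k (0.280 times, 0.255 to 0.307), as did Gstm2 (0.312 times) and Gstt1 (0.214 times).

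The 3 higher members were Aldh18a1 at 3.11 times (1.85 to 5.48, 87 and 18 counts), the omega class transferase Gsto1 at 1.74 times (1.35 to 2.27) and Cyp1b1, a P450 that hydroxylates oestradiol, with 19 counts in the core and 1 in airway-poor far spots (12.2 times, 1.94 to 507). Airway content was not level in this comparison either, with secretory markers at 0.177 and ciliated markers at 0.12 times their airway-poor far level. AT2 markers were at 0.210, AT1 markers at 0.0919, capillary markers at 0.0770 and fibroblast markers at 0.453 times theirs, and macrophage markers at 1.83 times. The part of these cell types was not tested.

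The core was also split into its outer 200 µm and the inner core, which only the larger metastasis had. In the outer core 26 of 45 members were lower (20.3% of features) and 3 higher (21.4%), which were Aldh18a1, Gsto1 and Aldh9a1. In the inner core 30 were lower (27% of features) and 5 higher (21%). The 5 higher in the inner core were Aldh18a1 (3.44 times), Gsto1 (1.61), Aldh1a2 (1.56, 1.12 to 2.19), Aldh3b1 (1.54) and Cyp4f16 (1.5). Aldh1a2, lower in the margin against airway-poor far spots only, was thus at 0.655 CP10k in the inner core and 0.419 in airway-poor far spots. Mesothelial markers were at 0.948 CP10k in the inner core and 2.63 in airway-poor far spots. The direction depended on the reference. Over the whole core these markers were at 0.331 times their airway-poor far level but 1.38 times (1.17 to 1.62) that of all far spots.

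Other genes of the same reactions, on a list of 69 that includes no member, were counted in the same way. Among them, 7 of 55 with enough counts were assigned to airway spots at 1.5-fold (3.1% of features): the aldehyde oxidases Aox1 and Aox3, the microsomal transferases Mgst1 and Mgst2, the carbonyl reductase Cbr2, the glutathione peroxidase Gpx2 and the electron carrier Cyb5a. Between airway-poor margin and airway-poor far spots, 5 of 52 were lower and 2 higher, where 4.62% and 12.2% of all features were. The methyltransferase Inmt was at 23.8 against 45.8 CP10k (0.521 times, 0.492 to 0.551). Also lower were the epoxide hydrolase Ephx1 (0.607), Cbr2 (0.635), Por, the reductase that feeds electrons to CYP enzymes (0.641), and the secreted peroxidase Gpx3 (0.644). Gclc, the rate-limiting enzyme of glutathione synthesis, was at 1.98 times (1.42 to 2.75) and the haem oxygenase Hmox1 at 1.77 times (1.07 to 2.88).

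In the core, 21 of 54 of these genes were lower and 11 higher than in airway-poor far spots, where 22.4% and 20.5% of features were. The lowest ratios were those of Inmt (0.0321), Gpx3 (0.0689) and the alcohol dehydrogenase Adh1 (0.106). The highest were those of Mgst2 (4.70), the quinone reductase Nqo2 (3.53) and the efflux pump Abcb1b (2.86). In the whole margin, 9 of 53 were lower and 3 higher (9.88% and 5.27% of features).

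Between the sections, the same class of spots was compared, metastatic far spots over control spots. In airway spots, 5 of 56 members were lower in the metastatic section (6.93% of features) and 6 higher (7.37%). Cyp2f2 differed little, at 40.6 against 44.4 CP10k (0.915 times, 0.89 to 0.94). Cyp2a5 had 93 counts against 1638 (0.503 against 4.41 CP10k, 0.114 times, 0.0915 to 0.141). The other lower members were Sult1d1, a sulfotransferase of catecholamines (9 and 157 counts, 0.115 times), Cyp2e1, which oxidises ethanol (2 and 47, 0.0855 times, 0.0101 to 0.326), Gstm5 (6 and 47, 0.256 times) and Gsto1 (0.509 times).

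Cyp2a5 was uneven within the control section. The largest connected patch of control airway spots, 121 of the 178, was at 6.09 CP10k, while the 3 other patches of at least 5 spots were at 0.455 to 0.629 and the 5 metastatic ones at 0.278 to 1.43. The same patch held 148 of the 157 control counts of Sult1d1 and 355 of the 414 of Gsto1. Gsto1 was at 1.37 CP10k in it, at 0.455 to 0.545 in the other control patches and at 0.425 to 0.890 in the metastatic ones, ranges that overlap outside that patch. By contrast, Cyp2f2 was at 45.5 CP10k in it and 34 to 50.5 in the others. That stretch of airway held 1578 of the 1638 counts of Cyp2a5 in control airway spots. Ciliated markers were at 24.9 CP10k in it, 15 to 19.4 in the other control patches and 14.3 to 18.2 in the metastatic ones. Smooth muscle and pericyte markers were at 20.6 CP10k in it, against 7.5 to 15.9 and 2.88 to 8.15. Ciliated markers were at 0.681 times and smooth muscle and pericyte markers at 0.318 times their control level in metastatic airway spots, and the part of airway size or type was not tested.

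**Figure D5:**
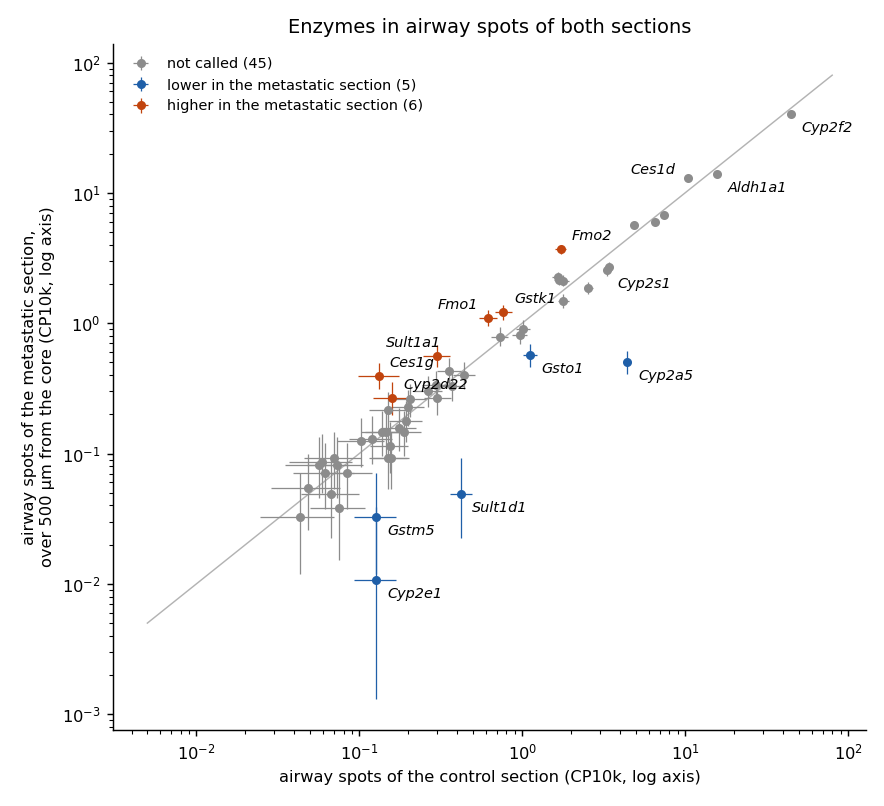
Level of 56 enzymes in airway spots of the control (x axis) and the metastatic (y axis) section, in CP10k on log axes with exact 95% counting intervals and the line of equal levels. Cyp2f2, Aldh1a1 and Ces1d lie near the line, and Cyp2a5, Sult1d1, Cyp2e1, Gstm5 and Gsto1 lie below it.

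The members higher in metastatic airway spots were Ces1g (0.395 against 0.132 CP10k, 2.99 times, 2.06 to 4.39, with 0 to 0.587 CP10k among the metastatic patches), Fmo2 (3.69 against 1.72, 2.15 times, 1.92 to 2.40), Sult1a1 (1.88 times), Fmo1 (1.79 times, 1.47 to 2.17), Cyp2d22 (1.67 times) and Gstk1 (1.58 times). Fmo1, Fmo2, Sult1a1 and Cyp2d22 are among the members lowest in airway spots. In the same spots capillary markers were at 1.97 and AT1 markers at 1.59 times their control level. Cardiac muscle genes had 8 counts there against 966 in control airway spots (0.0166 times), and the part of these cell types was not tested. With airway spots taken as the top 20% of a section, the ratio of Fmo1 was 0.993.

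In mesenchymal spots no member of 49 was lower in the metastatic section (8.77% of features) and 3 were higher (3.69%), and in alveolar spots 1 of 58 was lower (10.3%) and 2 higher (3.56%). Gsta3 was higher in both classes, at 2.66 against 1.05 CP10k in mesenchymal spots (2.53 times, 2.06 to 3.13) and at 2.13 against 0.975 in alveolar spots (2.19 times, 1.90 to 2.52). Aldh1a2 (2.57 times, 1.69 to 3.93) and Cyp7b1 (3.77 times, 15 and 8 counts) were higher in mesenchymal spots, where mesothelial markers were at 1.1 times. Cyp4f18, a P450 that inactivates leukotriene B4 in neutrophils, had 39 counts against 36 in alveolar spots (0.209 against 0.0860 CP10k, 2.43 times, 1.5 to 3.93), where neutrophil markers were at 12.8 times their control level. Ces2e was lower there with 9 and 45 counts (0.448 times). Red blood cell genes were at 3.40 and 3.42 times in mesenchymal and alveolar spots, and cardiac muscle genes remained at 6.68 and 6.91 CP10k in these control spots against 0.102 and 0.0749. The part of these cell types was not tested.

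Of the other genes of the same reactions, 5 of 55 were lower and 4 higher in metastatic airway spots (6.93% and 7.37% of features). In mesenchymal spots 1 of 51 was lower and 6 higher (8.77% and 3.69%), and in alveolar spots 2 of 56 were lower and 4 higher (10.3% and 3.56%). In airway spots the epoxide hydrolase Ephx2 had 0 counts against 29, Por was at 0.657 times (0.595 to 0.725) and Xdh, which makes uric acid, at 2.22 times (1.67 to 2.95). Xdh was at 0.259 CP10k in airway and 2.11 in alveolar spots of the control section. Capillary markers were at 1.97 and AT1 markers at 1.59 times their control level in metastatic airway spots, and their part was not tested.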

How the data were processed

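Fresh-frozen lung sections were profiled with the 10x Genomics Visium platform. The values were deposited by the authors as counts, made with Space Ranger 1.3.1 on mm10 per the labels: whole-number tallies of unique molecular identifiers for each gene in each tissue-covered spot, not normalized. The members and lists were chosen with earlier results of these data known. Levels were given per 10000 counts over all spots of a group, and ratios carried exact 95% binomial intervals of the split of counts. Since most spots hold about 10000 counts, low genes were read only from sums over spots.

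Spots were scored by averaging z-scores of log1p levels across a marker list. The core came from k-means with 5 clusters on 20 principal components, in connected pieces of 5 or more spots, which set aside 3 of 152 spots. Comparisons needed 20 counts in both groups together. Genes named were, in each class, the 6 with most counts and the 4 with the largest ratio, near and in the metastases the 5 highest and 5 lowest with at least 50 counts, between sections the 4 highest and 4 lowest, and all members above 1 CP10k. Others were chosen after their values were seen. GENCODE M21 located all 68 members. The values of 1 member are not reported here. The fold and interval limits were tried on simulated counts with known changes and Poisson counting error only. The rules on both metastases and on assignment to a class were not part of that trial. The alternatives were totals without abundant genes, other spot shares, markers, folds, count limits and references, thinning to 5000 counts, other cores and margins, and means over spots. Software was scikit-learn 1.9.0 and matplotlib 3.10.9, with Python 3.11.15, scipy 1.17.1, numpy 2.4.6 and pandas 2.3.3.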

Additional observations from a re-analysis of the deposited data

How the results depend on the processing

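No paired analysis was possible because each condition had 1 section, and no section could be left out. The lower counts in the core and the airway assignments kept within 1.5 times of 27 and 15 under all alternatives run, except that 24 members were airway enzymes with totals without abundant genes. That setting moved the median log2 ratio over features from 0.18 to 0.05 in the airway-poor margin, where 14 members were lower (7.16% of features) and 1 higher (8.33%), and from 0.01 to -0.17 in the core.

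The counts of the whole margin, 7 lower and 3 higher, depended on its definition. Lower members were 28 with the core taken by the 4T1 score (21 spots in 3 pieces, 20 of them in the cluster), 24 with 8 clusters (1 piece of 90 spots), 13 in the airway-poor margin, 12 within 100 µm, 3 at 2-fold and 1 with spots thinned to 5000 counts. Higher members were 1 without abundant genes, with thinning, with the lowest 10% as airway-poor, in the airway-poor margin and at the larger metastasis alone, 0 within 100 µm, 5 as means over spots and 8 at the smaller metastasis alone. In the core, 8 members were higher against all far spots, 6 as means over spots, 5 with 8 clusters, 5 over 200 µm from the edge and 1 with the lowest 10% as airway-poor.

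The mesenchymal assignments fell to 1 at 2-fold, with thinning, and with airway and mesenchymal spots as the top 5% or 20%. Between sections, with the top 20%, 8 members were lower in airway spots, 3 lower and 5 higher in mesenchymal spots, and 4 higher in alveolar spots. With the top 5%, 0 were lower and 4 higher in alveolar spots. As means over spots, 9 were lower in airway spots, 1 lower in mesenchymal spots, and 0 lower and 4 higher in alveolar spots. With ciliated markers alone, 1 was lower and 5 higher in mesenchymal spots and 2 lower in alveolar spots. With thinning, 1 was lower in mesenchymal and 2 in alveolar spots. With at least 300 counts, 3 were lower in airway and 0 in alveolar spots, and at 2-fold 2 were higher in airway spots.

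Against all far spots the margin ratios of Cyp20a1 (1.01), Aldh1a2 (1.3), Gsta4 (0.778) and Aldh1a7 (0.814) turned direction. So did those of Aldh1a2 (2.11), Gsta4 (0.607) and Aldh1a7 (0.344) with the 4T1 score core, of Gsta4 in the airway-poor margin (0.934) and with 8 clusters (0.410), and of Fmo1 between sections with the top 20% of airway spots (0.993). Causes were not tested. Thinning left out 362 control and 82 metastatic spots. With 1 section per condition and intervals of counting error only, no difference here is set against the spread between animals.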
